A study of Mus musculus with 13 samples.

Results

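Secreted acute phase proteins and lipocalin 2 were followed in S1 segments of the mouse kidney, the first stretch of the proximal tubule, through 7 listed genes: Lcn2, Orm1, Orm2, Saa1, Saa2, Saa3 and Hp. A gene was measured where a probe set carried its symbol alone, which held for 6 of the 7 genes, with 1 probe set each, among 22180 genes so measured on the array. Saa1 had no probe set of its own, because its 1 probe set was annotated to both Saa1 and Saa2. The samples came from male C57BL/6J mice with no genetic change named in the labels. Control mice (4 arrays) received saline, and LPS mice (4 arrays) received 1 intraperitoneal dose of lipopolysaccharide, the endotoxin of Gram-negative bacteria, at 5 mg/kg and were studied 24 h later. LPS/LPS mice (5 arrays) were first preconditioned with 0.25 mg/kg, given 5 mg/kg 24 h later, and studied 24 h after that. The sample labels write the doses as 5 µg and 100 µg. Separate animals for the single arrays are not stated in the labels, and p-values here cover no more than the spread of these arrays, which may be technical.

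Acute phase proteins are plasma proteins whose synthesis, mostly in the liver, is raised by interleukin-6, interleukin-1 and endotoxin through the transcription factors STAT3, NF-kappaB and C/EBP. Lipocalin 2 binds bacterial iron carriers and is used as a marker of tubular injury, the orosomucoids are drug- and lipid-binding plasma glycoproteins of the same lipocalin fold, serum amyloid A proteins travel on lipoproteins, and haptoglobin captures free haemoglobin. The proximal tubule takes up filtered lipocalin 2 and other small proteins through megalin, encoded by Lrp2.

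In the segments given 1 LPS dose, Orm2 stood at a mean level 5.93-fold that of controls and was above a background reference, drawn from olfactory receptor genes, on every array. The Lcn2 mean was 3.49-fold that of controls, a size that is uncertain because all control arrays lay below that reference. Saa2 and Orm1 had higher means with more overlap, while Saa3 and Hp lay near their control levels. In preconditioned segments Orm2, Orm1 and Saa2 had means close to control, and Lcn2 lay between the other groups. None of these differences passed the threshold of an adjusted p under 0.05 over all 22180 genes, by limma's moderated test. LPS replicate 1 was the lowest LPS array for both Orm2 and Lcn2, so leaving it out raises their LPS means. Without it both were called against control, among 24 genes, and between LPS/LPS and LPS, among 96 genes. With all arrays 0 and 14 genes were called in these comparisons. Other arrays left out moved the values the other way. In LPS vs control the adjusted p was 0.261 for Lcn2 without control replicate 1 and 0.283 for Orm2 without control replicate 2.

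Values are RMA log2 levels, where RMA (robust multi-array averaging) turns the probes of a probe set into 1 number and a difference of 1 is a doubling. The mean levels of 1105 olfactory receptor genes, taken as mostly silent here, served as a background reference, whose 95th percentile was a log2 level of 4.77, exceeded by the means of 2207 genes. Below it the size of a difference is uncertain. Array medians ranged from 3.56 to 3.68. Arrays also differed in the spread of their values, and the 7 with the highest SD over all probe sets (numbers 1 and 4 of control, 2 to 4 of LPS, and 1 and 5 of LPS/LPS) are called wide and the other 6 narrow. LPS replicate 1 is thus the single narrow LPS array, and differences from LPS among narrow arrays rest on it alone. Of 19 S1 and S2 proximal tubule markers 9 had a mean above the reference, led by the phosphate transporter gene Slc34a1 (11.23 in control), whereas the glucose transporter gene Slc5a2 lay below it (4.50 in control).

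The 250 bases before the transcription start were compared first, because the members are known as targets of the same few factors. RefSeq sequences of GRCm38.p6 were at hand for 5 of the 7 genes: Lcn2, Orm2, Saa1, Saa2 and Saa3. They are shown for the 3 measured members with the largest LPS differences, with matches to the C/EBP motif TTGCNNAA (either strand) in capitals, 5′ to 3′ on the gene's strand. The Lcn2 window lies at chr2:32387740-32387989 on the minus strand, the Orm2 window at chr4:63362199-63362448 on the plus strand and the Saa2 window at chr7:46751583-46751832 on the plus strand.
Lcn2: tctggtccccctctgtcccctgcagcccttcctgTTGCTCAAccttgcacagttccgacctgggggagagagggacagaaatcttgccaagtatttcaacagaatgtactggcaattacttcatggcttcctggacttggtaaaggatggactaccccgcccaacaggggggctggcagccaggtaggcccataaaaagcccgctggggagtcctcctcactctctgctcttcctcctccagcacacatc
Orm2: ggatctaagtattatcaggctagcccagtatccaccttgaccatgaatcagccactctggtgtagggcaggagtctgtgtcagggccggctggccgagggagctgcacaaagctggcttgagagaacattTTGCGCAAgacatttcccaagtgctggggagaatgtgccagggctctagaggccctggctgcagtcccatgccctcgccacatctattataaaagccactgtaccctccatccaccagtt
Saa2: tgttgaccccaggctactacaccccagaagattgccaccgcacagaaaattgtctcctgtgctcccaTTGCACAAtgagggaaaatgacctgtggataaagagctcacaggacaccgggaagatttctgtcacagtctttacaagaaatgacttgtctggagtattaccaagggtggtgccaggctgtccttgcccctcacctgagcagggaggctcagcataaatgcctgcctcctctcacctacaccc

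All 5 windows held a match to TTGCNNAA, which 9.56% of 32851 RefSeq promoter windows of that length held. The Orm2 match lay 120 to 113 bases before the start, that of Lcn2 216 to 209 and that of Saa2 183 to 176. Saa3, whose level hardly differed between groups, also had a match, at 99 to 92 bases. The STAT motif TTCNNNGAA, held by 7.02% of all windows, and the kappaB consensus, held by 3.9% and searched on both strands, matched 0 of the 5. The C/EBP motif was chosen after the sequences had been seen, and a match is a description of letters. The Saa1 and Saa2 windows were alike at 95.2% of their 250 bases. The Orm2 window and that of its neighbour Orm3 were alike at 87.2%. In RefSeq's gene order Orm1, Orm3 and Orm2 are neighbours, as are Saa3, Saa4, Saa1 and Saa2. Probe sets of such close relatives can take signal from each other, so the Orm and Saa values are uncertain as to the member.

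**Figure D1:**
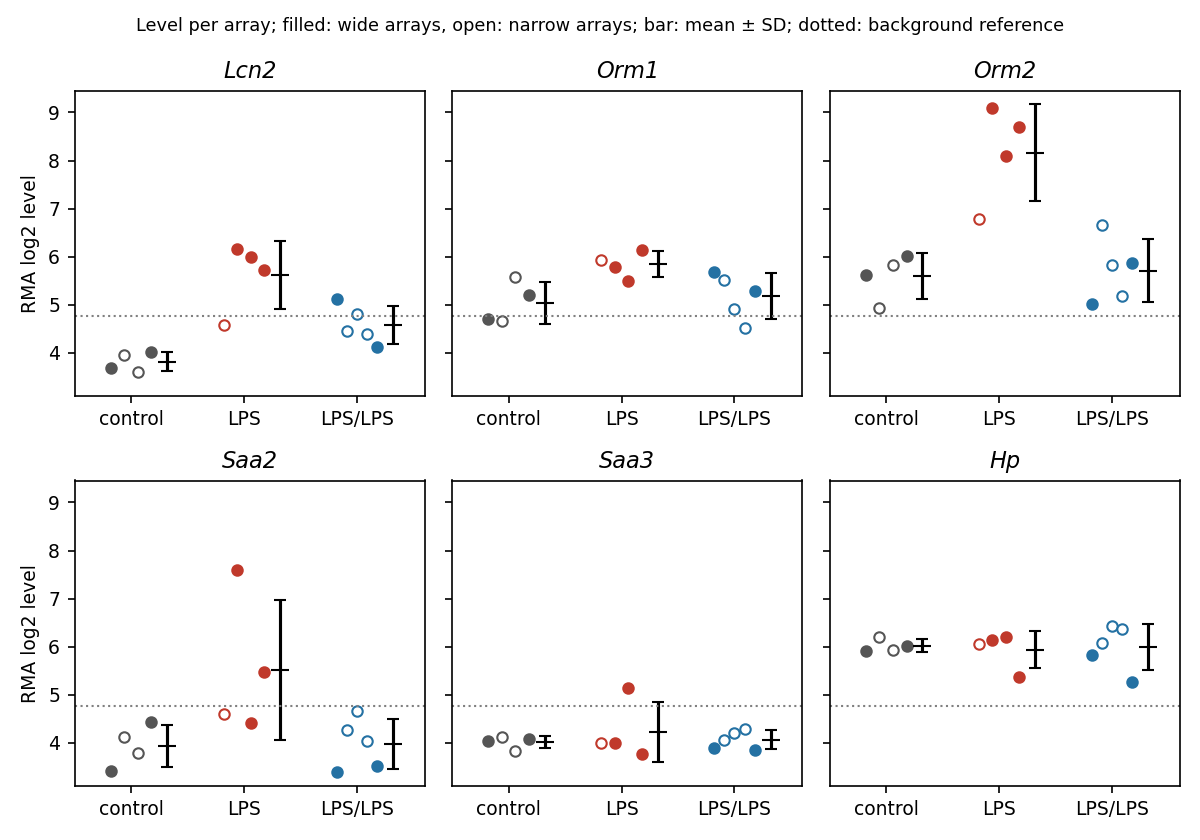
RMA log2 level of each measured member on each array, by group; filled points are wide arrays, open points narrow arrays, bars give the mean ± SD (4 control, 4 LPS, 5 LPS/LPS arrays) and the dotted line is the background reference of 4.77. The LPS arrays lie above all control arrays for Lcn2 and Orm2, with LPS replicate 1 the lowest LPS array in both.

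Lcn2 encodes lipocalin 2. Its control levels were 3.68, 3.94, 3.60 and 4.02 in replicates 1 to 4, with a mean of 3.81 ± 0.20 (SD, n = 4). Its LPS levels were 4.58, 6.16, 5.99 and 5.73, with a mean of 5.61 ± 0.71 (SD, n = 4). Every LPS array was above every control array, and the 3 wide LPS arrays stood well above LPS replicate 1. The LPS/LPS levels were 5.12, 4.45, 4.81, 4.38 and 4.11, with a mean of 4.57 ± 0.39 (SD, n = 5). All 5 LPS/LPS arrays were above all control arrays and below the 3 wide LPS arrays, but LPS replicate 1 lay within their range. None of the 4 control arrays exceeded the background reference, against 3 of 4 LPS and 2 of 5 LPS/LPS arrays.

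The Lcn2 mean was thus lowest in control and highest in LPS. It was 1.80 (SE 0.30) higher on the log2 scale in LPS than in control, which ranked 11th among all genes by p and had an adjusted p of 0.0638. LPS/LPS exceeded control by 0.76 (SE 0.29, adjusted p = 0.987) and differed from LPS by -1.04 (SE 0.29, adjusted p = 0.296). The LPS difference from control was 2.11 among wide and 0.81 among narrow arrays. The difference of LPS/LPS from control was 0.77 in each class. Between LPS/LPS and LPS it was -1.34 among wide and -0.04 among narrow arrays. Without LPS replicate 1, Lcn2 differed by 2.15 between LPS and control (adjusted p = 0.00271) and by -1.39 between LPS/LPS and LPS (adjusted p = 0.0163).

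Orm2 encodes an orosomucoid, an alpha-1-acid glycoprotein of plasma, and had the largest difference of the members. Its control levels were 5.62, 4.92, 5.82 and 6.02, with a mean of 5.59 ± 0.48 (SD, n = 4). Its LPS levels were 6.79, 9.09, 8.08 and 8.69, with a mean of 8.16 ± 1.01 (SD, n = 4). The LPS/LPS levels were 5.00, 6.65, 5.82, 5.19 and 5.87, with a mean of 5.71 ± 0.65 (SD, n = 5). The LPS arrays overlapped neither the control nor the LPS/LPS arrays, and control and LPS/LPS arrays covered much the same range. The LPS mean exceeded those of 99.8% of genes in that group, and all 13 arrays were above the background reference.

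Orm2 was 2.57 (SE 0.45) higher in LPS than in control, with an adjusted p of 0.0844. LPS/LPS differed from LPS by -2.46 (SE 0.43, adjusted p = 0.0607), a mean 5.48-fold lower. LPS/LPS exceeded control by 0.11 (SE 0.43, adjusted p = 0.991). The 95% interval of that difference, not adjusted over genes, ran from -0.80 to 1.03, and differences within it are compatible with these arrays. Among wide arrays LPS exceeded control by 2.80, and the difference of LPS/LPS from LPS was -3.18. Among narrow arrays these were 1.42 and -0.90, resting on the 1 LPS array. LPS/LPS minus control was -0.38 among wide and 0.52 among narrow arrays. Without LPS replicate 1, Orm2 differed by 3.03 between LPS and control (adjusted p = 0.0118) and by -2.91 between LPS/LPS and LPS (adjusted p = 0.00545).

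Orm1, the neighbouring orosomucoid gene, had its highest mean in LPS, like Orm2, with smaller differences of LPS from both other groups. Its control levels were 4.71, 4.66, 5.57 and 5.20 (mean 5.03 ± 0.43, SD, n = 4). Its LPS levels were 5.94, 5.78, 5.49 and 6.14 (mean 5.84 ± 0.27, SD, n = 4). The LPS/LPS levels were 5.68, 5.51, 4.90, 4.52 and 5.28 (mean 5.18 ± 0.47, SD, n = 5). LPS replicate 3 lay just below control replicate 3, so the groups overlapped. Orm1 was 0.81 (SE 0.26, adjusted p = 0.59) higher in LPS than in control, by 0.85 among wide and 0.82 among narrow arrays. Unlike Lcn2 and Orm2, it was not lowest among LPS arrays in replicate 1. Between LPS/LPS and LPS the difference was -0.66 (SE 0.25, adjusted p = 0.471), and between LPS/LPS and control it was 0.15 (SE 0.25, adjusted p = 0.991). The last value was 0.53 among wide and -0.13 among narrow arrays, and it ran from 0.019 without LPS/LPS replicate 1 to 0.32 without control replicate 3. The difference of LPS/LPS from LPS was -0.33 among wide and -0.96 among narrow arrays. Orm3, the orosomucoid gene between them, is counted in both the other acute phase and the other lipocalin lists.

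**Figure D2:**
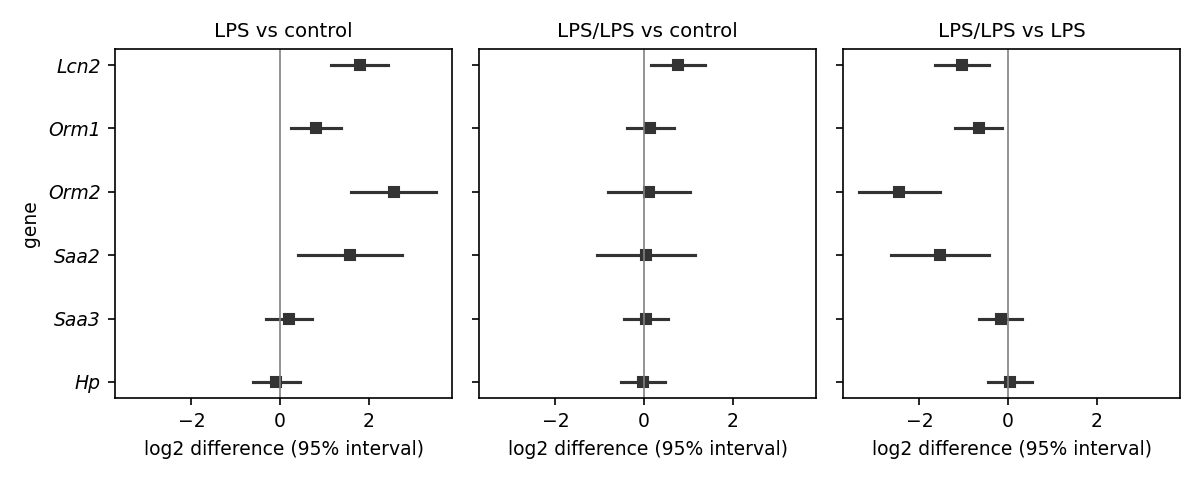
Log2 differences of the 6 measured members in the 3 comparisons, as squares with limma's 95% intervals from the fit over all 13 arrays; the vertical line marks 0. The intervals of Lcn2, Orm1, Orm2 and Saa2 lie above 0 in LPS vs control and below 0 in LPS/LPS vs LPS before adjustment over all genes.

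Saa2 encodes a serum amyloid A protein that circulates on high-density lipoprotein. Its control levels were 3.40, 4.12, 3.78 and 4.42 (mean 3.93 ± 0.44, SD, n = 4), all below the background reference. Its LPS levels were 4.59, 7.59, 4.41 and 5.47 (mean 5.51 ± 1.46, SD, n = 4). The LPS/LPS levels were 3.39, 4.27, 4.65, 4.03 and 3.52 (mean 3.97 ± 0.52, SD, n = 5). LPS replicate 2 was far the highest array, and LPS replicate 3 lay just under the highest control. Saa2 was 1.59 (SE 0.54, adjusted p = 0.634) higher in LPS than in control. LPS/LPS differed from LPS by -1.54 (SE 0.52, adjusted p = 0.431) and from control by 0.04 (SE 0.52, adjusted p = 0.996). Without LPS replicate 2 the LPS difference from control was 0.89 and that of LPS/LPS from LPS was -0.85. That of LPS from control was 1.91 among wide and 0.64 among narrow arrays.

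The probe set annotated to both Saa1 and Saa2 gives no value for either gene. Its control levels were 3.69, 2.91, 2.46 and 4.25, and its LPS levels were 3.35, 7.53, 5.88 and 6.61. Its LPS/LPS levels were 6.76, 3.14, 5.70, 3.73 and 2.87. The 3 wide LPS arrays were high, as for Lcn2 and Orm2, and LPS replicate 1 lay among the controls. In a fit over all 41345 probe sets it was 2.51 (SE 0.97, adjusted p = 0.827) higher in LPS than in control. LPS/LPS differed from control by 1.11 (SE 0.92, adjusted p = 0.994) and from LPS by -1.40 (SE 0.92, adjusted p = 0.809). The probe sets parted in LPS/LPS replicate 1, where the shared one was second highest of 13 arrays at 6.76 and that of Saa2 alone was lowest at 3.39. Their correlation over the 13 arrays was 0.61, given as a description.

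**Figure D3:**
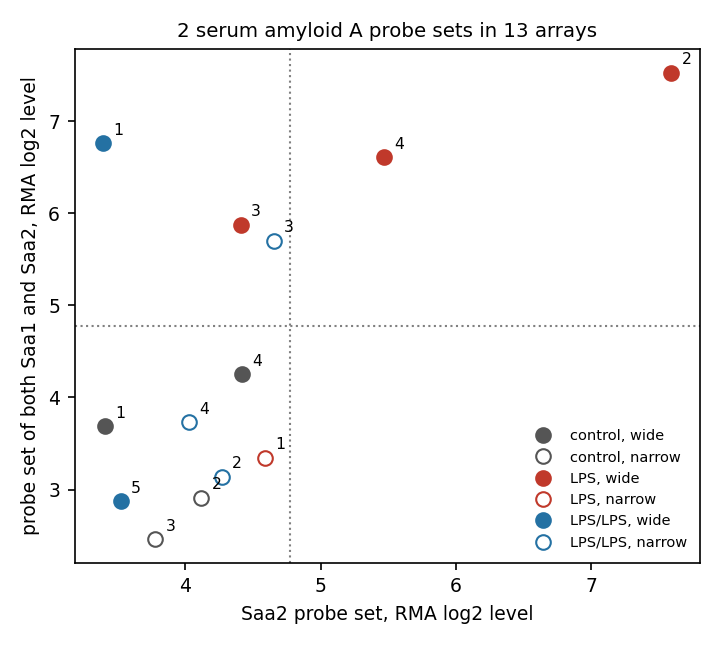
RMA log2 level of the probe set of Saa2 alone (x axis) and of the probe set annotated to both Saa1 and Saa2 (y axis) on each of 13 arrays, numbered by replicate; filled points are wide and open points narrow arrays, and dotted lines mark the background reference. LPS replicates 2 and 4 are above the reference on both axes, while LPS replicate 3 and LPS/LPS replicates 1 and 3 are above it on the shared probe set alone.

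Saa3 encodes the serum amyloid A protein made largely outside the liver in mice. Its levels were 4.03, 4.12, 3.82 and 4.07 in control and 3.99, 3.99, 5.13 and 3.76 in LPS. The LPS/LPS levels ran from 3.85 to 4.29. LPS replicate 3 was the 1 array above the background reference, and the groups otherwise covered the same range. The LPS difference from control was 0.21 (SE 0.24, adjusted p = 0.901), and without LPS replicate 3 it was -0.095. LPS replicate 3 also had the highest mean of 16 marker genes of later nephron stretches (loop, distal tubule, collecting duct), at 5.02 against 4.01 to 4.24 on the other 12 arrays, and it was also highest of the 13 arrays for the S1 and S2 (5.90), S3 (4.82) and fibroblast and mural markers (4.42). The part of these cells in its Saa3 level was not tested. For LPS/LPS it was 0.05 from control (SE 0.23, adjusted p = 0.993) and -0.16 from LPS (SE 0.23, adjusted p = 0.883).

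Hp encodes haptoglobin. Its levels were 5.92, 6.20, 5.94 and 6.01 in control and 6.05, 6.14, 6.20 and 5.36 in LPS. The LPS/LPS levels were 5.82, 6.07, 6.42, 6.37 and 5.27. All 13 arrays were above the background reference. The lowest were LPS replicate 4 and LPS/LPS replicate 5, and the highest were LPS/LPS replicates 3 and 4. These arrays were also the lowest (3.94 and 4.00) and the highest (both 4.58) for the mean of 18 hepatocyte markers. The samples were segments of kidney, not liver, and a link of these markers with the Hp level was not tested. The means were 6.02 ± 0.13 in control (SD, n = 4), 5.94 ± 0.39 in LPS (SD, n = 4) and 5.99 ± 0.47 in LPS/LPS (SD, n = 5). LPS differed from control by -0.08 (SE 0.24, adjusted p = 0.964), with a 95% interval from -0.60 to 0.44. LPS/LPS differed from control by -0.03 (SE 0.23, adjusted p = 0.995) and from LPS by 0.06 (SE 0.23, adjusted p = 0.963). An interval of -0.60 to 0.44 does not reach the log2 differences of Orm2 or Lcn2, although the genes were not tested against each other.

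Counted over the 6 measured members, 0 passed the adjusted threshold in LPS vs control, where limma called 0 of 22180 genes (0%). At an unadjusted p under 0.05, 4 members (Lcn2, Orm1, Orm2 and Saa2) were higher and 0 lower, and 3.49% of all genes were higher. The groups did not overlap, with LPS higher, for Lcn2 and Orm2, 2 of 6 members against 1.55% of all genes. The median difference of the 6 was 1.20, beside -0.02 for all genes.

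In LPS/LPS vs control, 0 members passed, and 0.00902% of genes did. At an unadjusted p under 0.05, 1 member, Lcn2, was higher, as were 2.62% of genes, and 0 were lower. Lcn2 was also the 1 member whose groups did not overlap, which held with LPS/LPS higher for 0.839% of genes. The median difference of the members was 0.08, beside 0.03 for all genes.

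In LPS/LPS vs LPS, 0 members passed, against 0.0631% of genes. At an unadjusted p under 0.05, Lcn2, Orm1, Orm2 and Saa2 were lower, 4 of 6 members against 4.49% of genes. In the same comparison 7 of 19 S1 and S2 markers were lower and 0 higher, with a median difference of -0.47, and 4 of 9 S3 markers were lower and 0 higher. The part of that marker shift in the member differences was not tested. Only Orm2 had groups that did not overlap with LPS/LPS lower, as had 1.3% of genes. The median difference of the members was -0.85, beside 0.05 for all genes. This comparison shares its LPS arrays with LPS vs control, so high LPS arrays enter both. The moderated F-test over the 3 groups called 0.0631% of genes and 0 members, with adjusted p-values of 0.0559 for Orm2 and 0.0942 for Lcn2.

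The members were not alike across single arrays. Over the 13 arrays the correlation with Lcn2 was 0.79 for Orm2 and 0.69 for Saa2, and Orm2 and Saa2 correlated at 0.80. Of deviations from the group means these were 0.41, 0.44 and 0.60, and Hp correlated with Lcn2 at 0.01. Such values describe arrays that also share their spread of values. The plot of Lcn2 against Orm2 separates the 3 wide LPS arrays, at 5.73 to 6.16 for Lcn2 and 8.08 to 9.09 for Orm2, from the other 10. LPS/LPS replicate 1 had the highest Lcn2 level outside them, at 5.12, with an Orm2 level of 5.00.

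**Figure D4:**
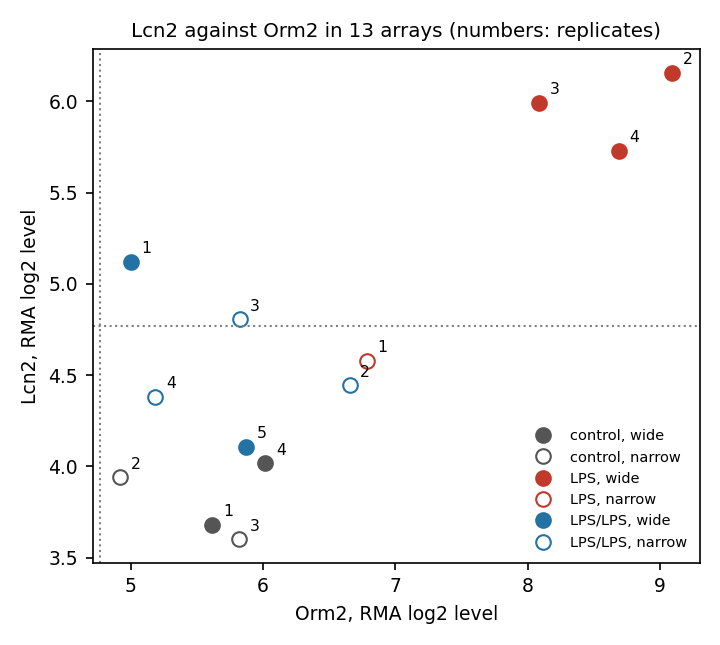
RMA log2 levels of Orm2 (x axis) and Lcn2 (y axis) on each of 13 arrays, numbered by replicate; filled points are wide and open points narrow arrays, and dotted lines mark the background reference. LPS replicates 2, 3 and 4 lie apart at the upper right, and LPS replicate 1 lies beside LPS/LPS replicate 2.

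Genes with the most similar pattern were sought by Pearson's r over the 13 arrays, among 1757 or 1758 named genes with a mean above the reference. That mean was taken over all 13 arrays, so genes high in LPS alone could enter the search through the LPS arrays. Nearest to Lcn2 were Nrxn2, a neurexin gene (r = 0.898), the MHC class II gene H2-Ab1 (0.875) and the interferon-inducible GTPase gene Gbp10 (0.856). Of deviations from the group means these were 0.75, 0.71 and 0.52, and they were 0.92, 0.75 and 0.73 without LPS replicates 2 and 3, the arrays farthest from the Lcn2 median. Nearest to Orm2 were the fibrinogen gamma chain gene Fgg (0.895), H2-Ab1 (0.875) and the ribosome assembly factor gene Eif6 (0.864). These were 0.67, 0.58 and 0.68 of deviations from the group means, and 0.77, 0.81 and 0.60 without LPS replicates 2 and 4. For Saa2 they were the kinase gene Sik1 (0.90), Mettl7a3 (0.86) and Nrxn2 (0.85), which were 0.55, 0.71 and 0.19 without the same arrays. Orm1 was nearest to the splicing factor gene Srrm1 (0.83), then Txnip (0.75) and Tmem89 (0.75), values that were 0.85, 0.69 and 0.62 without control replicate 2 and LPS/LPS replicate 4. The group means of Fgg were 3.76 in control, 6.71 in LPS and 4.31 in LPS/LPS, above the reference in LPS alone. Fgg thus entered the search through the LPS arrays, which favours a likeness to Orm2, so its r is no more than a description.

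Saa3 and Hp had other neighbours. Saa3 was nearest to the water channel gene Aqp1 (0.948), Rtn3 (0.90) and Cyba (0.88), values that were 0.66, 0.37 and 0.61 without LPS replicates 3 and 4. Hp was nearest to Tmem210 (0.92), Gtf2h5 (0.91) and Ly6g6e (0.91), values that were 0.68, 0.70 and 0.85 without LPS replicate 4 and LPS/LPS replicate 5.

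Other secreted acute phase genes were measured at 29 of 34 listed, and 0 passed in any comparison. At an unadjusted p under 0.05, 6 of the 29 were higher and 2 lower in LPS vs control, where 3.49% of all genes were higher and 2.95% lower. In LPS/LPS vs LPS 1 was higher and 6 were lower, beside 4.13% and 4.49% of all genes. The median LPS difference from control was -0.02, the same as for all genes. Lowest in p were the fibrinogen chain genes, which encode the clotting protein. Fgb differed by 2.19 (SE 0.39, adjusted p = 0.0919), Fgg by 2.94 (SE 0.60, adjusted p = 0.167) and Fga by 1.71 (SE 0.38, adjusted p = 0.23). Their differences of LPS/LPS from control were 0.21, 0.55 and 0.14, and from LPS they were -1.98, -2.40 and -1.57. These sizes are uncertain, because the control means (Fgb 3.63, Fgg 3.76, Fga 2.96) lay below the background reference. In LPS the means were 5.82, 6.71 and 4.67, that of Fga still below the reference.

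Among 38 measured genes that induce or carry the acute phase signal, 0 passed in any comparison, and 5 were higher and 0 lower in LPS vs control at an unadjusted p under 0.05, beside 3.49% and 2.95% of all genes. Their median difference was 0.08. Cd14, the LPS co-receptor gene, differed by 1.497 (SE 0.28, adjusted p = 0.11). Stat3, which carries the interleukin-6 signal, differed by 0.87 (SE 0.22, adjusted p = 0.422), and the NF-kappaB inhibitor gene Nfkbia by 0.75 (SE 0.23, adjusted p = 0.547). Their differences of LPS/LPS from LPS were -1.36, -0.50 and -0.66. The endotoxin receptor gene Tlr4 (0.10), the interleukin-6 receptor gene Il6ra (-0.03) and the C/EBP genes Cebpb (0.01) and Cebpd (0.11) had small LPS differences, with adjusted p-values from 0.943 to 0.995. Tlr4 (2.72 in control, 2.81 in LPS), Il6ra (4.61, 4.58) and Cebpd (3.41, 3.52) lay below the background reference, where such sizes are uncertain. Cebpb lay above the reference (4.94 in control, 4.95 in LPS). The control means of Cd14 (3.72), Stat3 (4.70) and Nfkbia (4.37) were below the reference too.

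Receptors and clearance genes of the members were measured at 17 of 19 listed, and 0 passed in any comparison. At an unadjusted p under 0.05, 0 were higher and 1 lower in LPS vs control, Fcgrt (-0.67, SE 0.22, adjusted p = 0.59), the neonatal Fc receptor gene, and 0 were higher and 2 lower in LPS/LPS vs control. In LPS/LPS vs LPS 0 were higher and 2 lower. The shares of all genes lower in these 3 comparisons were 2.95%, 2.07% and 4.49%. Counts of 1 or 2 among 17 genes are too small to be read as a result. Next in p in LPS vs control were the endocytic receptor gene Lrp1 (0.32) and the asialoglycoprotein receptor gene Asgr2 (-0.36). Lrp2, the megalin gene, had means of 5.40 in control, 5.53 in LPS and 4.11 in LPS/LPS. It differed by -1.29 (SE 0.58, adjusted p = 0.987) between LPS/LPS and control, and those groups did not overlap, which held with LPS/LPS lower for 0.699% of genes. Of the 19 S1 and S2 markers, Lrp2 among them, 9 were lower and 0 higher in that comparison at an unadjusted p under 0.05, beside 2.07% of all genes lower, and the part of the other markers' shift in the Lrp2 level was not tested.

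Other lipocalin family genes, 18 of 18 listed and Orm3 among them, had 0 members past the adjusted threshold and 0 at an unadjusted p under 0.05 in the 3 comparisons. Their median LPS difference from control was -0.05, and the lowest p-values belonged to Lcn10 (-0.37), Lcn5 (0.23) and Apom (-0.28), the last an apolipoprotein gene. Of 20 measured iron and haem genes 0 passed, and 2 were higher and 0 lower in LPS vs control at an unadjusted p under 0.05, beside 3.49% and 2.95% of all genes. These were Aco1 (0.64), whose product senses iron, and the metal importer gene Slc39a14 (0.42), followed by the iron exporter gene Slc40a1 (0.35). In LPS/LPS vs LPS 1 of the 20 was higher and 5 were lower at that threshold, beside 4.13% and 4.49% of all genes. The median difference of the list there was -0.12.

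Markers of other cells that make these proteins were set beside the members. Of 15 neutrophil markers, cells that store lipocalin 2 and haptoglobin, 0 exceeded the reference when averaged over the 13 arrays, and their mean level per array ran from 3.37 to 3.70 in control, 3.29 to 3.75 in LPS and 3.48 to 3.71 in LPS/LPS. Of the 15 LPS differences from control 3 were positive, and the median was -0.10. Among those 3 was the granule gene S100a8, with group means of 2.14 in control and 2.42 in LPS. Ngp, another granule gene, had a control mean of 4.90, above the reference, and an LPS mean of 4.54, below it, as was its mean over all arrays. Hepatocyte markers, 8 of 18 above the reference, ran from 4.35 to 4.55 in control, 3.94 to 4.43 in LPS and 4.00 to 4.58 in LPS/LPS. Their albumin gene Alb had means of 5.81, 5.81 and 6.12 in that order. Of the 18 hepatocyte marker differences of LPS from control 7 were positive, and the median was -0.16. At an unadjusted p under 0.05 by limma's moderated test, 1 was higher and 3 lower, beside 3.49% and 2.95% of all genes. Macrophage markers (1 of 16 above the reference) ran from 3.83 to 3.92 in control, 3.87 to 3.98 in LPS and 3.87 to 4.06 in LPS/LPS. Endothelial markers (1 of 11) ran from 3.87 to 3.95, 4.02 to 4.26 and 4.05 to 4.14, so both LPS groups lay above control.

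Markers of these later stretches (2 of 16 above the reference) ran from 4.09 to 4.17 in control, 4.01 to 5.02 in LPS and 4.08 to 4.24 in LPS/LPS. LPS replicate 3 held the highest value, and its levels were 5.99 for Lcn2 and 8.08 for Orm2. Lcn2 and Orm2 were highest in LPS replicate 2, at 6.16 and 9.09, and the distal marker mean of that array was 4.02. S1 and S2 markers ran from 5.02 to 5.72 in control, 4.57 to 5.90 in LPS and 4.51 to 5.07 in LPS/LPS. LPS replicate 1, lowest of the LPS arrays for Lcn2 and Orm2, was also lowest of them for these markers. Markers of S3, the last stretch of the proximal tubule (3 of 9 above the reference), ran from 3.74 to 4.33 in control, 4.10 to 4.82 in LPS and 3.60 to 4.42 in LPS/LPS, highest in LPS like Orm2 and Lcn2. Fibroblast and mural markers (2 of 10 above the reference) ran from 3.76 to 3.97 in control, 3.84 to 4.42 in LPS and 3.98 to 4.23 in LPS/LPS, so every LPS/LPS array lay above every control array, as for Lcn2. Of 6 podocyte markers 0 had a mean above the reference, and of 1 erythrocyte marker 0. In bulk segments, fewer cells of a type and less RNA per cell cannot be told apart. The part of each of these cell types in the member levels was not tested.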

How the data were processed

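RNA from 13 samples was measured on Affymetrix whole-transcript arrays. Probe set values were deposited by the authors on a log2 scale, read from their range, with RMA and Partek 6.6 named without roles in the submitters' processing notes. The settings and a genome build were not given in the sources used here. Of 41345 probe sets, 23521 had 1 symbol in the platform annotation, 1814 several and 16010 none. The last 2 kinds were left out, except the probe set of both Saa1 and Saa2. Each gene took its probe set with the highest mean, which left 22180 genes. A single limma 3.58.1 fit in R 4.3.3 over all arrays gave the 3 comparisons, tested on simulated data, with Benjamini-Hochberg adjustment over all genes. The number of arrays limits the precision. No scanner files were used, so no detection calls were made.

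Named genes were the members, the 3 genes of lowest p in LPS vs control of each other list, 6 sensing, signalling and uptake genes, and the 3 nearest genes by r. Marker genes were named after their values were seen. The members and lists were chosen with earlier results of these data known. Alternatives covered the arrays fitted, normalization, centring, variance trend, array weights, replicate numbers, a filter on low values, probe sets, array spread and each array left out.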

Additional observations from a re-analysis of the deposited data

Results flagged for a closer look

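The probe set annotated to both Saa1 and Saa2 carried signal outside the comparisons of genes with 1 symbol. Its mean was 5.84 ± 1.79 (SD, n = 4) in LPS, above 3.33 ± 0.80 (SD, n = 4) in control, with 3 of 4 LPS arrays over all control arrays and an adjusted p of 0.827 over all probe sets. The LPS/LPS mean was 4.44 ± 1.70 (SD, n = 5), with 2 of 5 arrays above the background reference. Over the 18 groups of member levels, 0 had an array that stood apart by Dixon's 95% critical values.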

How the results depend on the processing

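Each of 18 member differences was recomputed under 23 alternatives, 13 of which left out 1 array, and 10 of the 18 kept their direction in all of them: every difference of Lcn2 and Orm1, those of Orm2 and Saa2 in LPS vs control and in LPS/LPS vs LPS, and none of Saa3 or Hp. In LPS vs control the adjusted p ran from 0.00271 to 0.261 for Lcn2 and from 0.0118 to 0.283 for Orm2, and in LPS/LPS vs LPS from 0.0163 to 0.662 for Lcn2 and from 0.00545 to 0.2 for Orm2.

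Array weights called 2 members and 30 genes in LPS vs control, 1 member and 41 genes in LPS/LPS vs LPS, and 41 genes in the F-test, and gave an Hp difference of 0.044 between LPS/LPS and control. With only genes above the median level, which tests fewer genes, 1 member (Lcn2) and 9 genes were called in LPS vs control. That filter called 1 gene in LPS/LPS vs control, and 1 member (Orm2) and 18 genes in LPS/LPS vs LPS. Quantile normalization called 5, 4 and 9 genes in the 3 comparisons and 7 in the F-test, with an Hp difference of 0.17 between LPS/LPS and control. Fits of only the 2 groups compared called 0 genes in LPS/LPS vs control and 2 in LPS/LPS vs LPS. Centred medians called 1 gene in LPS/LPS vs control, and the variance trend called 4 in the F-test. Every probe set tested called 0 in LPS/LPS vs control, 7 in LPS/LPS vs LPS and 0 in the F-test. With array spread as a block, 4 genes were called in LPS/LPS vs control, and Hp differed by 0.012 between LPS and control and by -0.076 between LPS/LPS and LPS. The causes were not tested.

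With the replicate number as a block, 3, 0 and 4 genes were called in the 3 comparisons, 2 in the F-test and 0 members, and Hp differed by 0.15 between LPS/LPS and control. Arrays of the same number in different groups had a mean correlation of deviations of -0.03 over 12 pairs, from -0.35 to 0.22. Those of different numbers had a mean of 0.008 over 44 pairs, from -0.33 to 0.54. Whether the numbers pair the samples cannot be told from these values, and the labels do not say.

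Leaving out 1 array gave 0 to 24 genes and 0 to 2 members in LPS vs control, 0 to 3 genes in LPS/LPS vs control, 5 to 96 genes and 0 to 2 members in LPS/LPS vs LPS, and 1 to 39 genes in the F-test, each time with the highest count without LPS replicate 1 except the 3, without control replicate 3. Ranges that crossed 0 were -0.095 to 0.36 for Saa3 and -0.17 to 0.11 for Hp in LPS vs control, and -0.31 to 0.14 for Saa3 and -0.14 to 0.24 for Hp in LPS/LPS vs LPS. In LPS/LPS vs control they were -0.12 to 0.29 for Orm2, -0.13 to 0.21 for Saa2, -0.015 to 0.10 for Saa3 and -0.13 to 0.15 for Hp. Signal over background limits Lcn2, Saa2 and Saa3, whose control arrays all lay below the background reference.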
